A study of Mus musculus with 4 samples.

Results

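The regions described here were the PRDM6 binding peaks on mouse chromosome 1. They were selected on their position alone, as the rows of the deposited list of matched peaks whose chromosome was 1, and each was joined to its annotation by start and end. The list itself was made by a threshold on measured signal, so peak strength is given as a description of the members. Chromosome 1 held 1412 of the 13977 peaks in all, and the other 18 autosomes held 12472. Peaks were described in mm10 coordinates, counted from 1.

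PRDM6 was precipitated from cultured mouse outflow tract smooth muscle cells (SMCs), the cells that form the muscular wall of the great vessels where they leave the heart. The 4 samples fell into the PRDM6 ChIP group with 2 libraries and the Input group with 2 libraries of chromatin that was not precipitated. All 4 came from cells of mouse embryos on a C57/Black6 background that carried a lentivirus expressing FLAG-tagged PRDM6, and the antibody was directed against the tag, so the overexpressed protein was recorded and the endogenous one was not. The study's methods describe outflow tract SMCs as taken from the aortic arch and ductus arteriosus of late-gestation embryos with floxed Prdm6 alleles (Prdm6fl/fl). Its passages differ on the embryonic day. The study's text speaks both of 2 precipitations of one sample and of independent replicates, so the spread between them may be technical. Untransduced cells were not analysed here. Input values entered only through the peak calls, and no RNA was measured in this assay, so neither an Input level nor the SMC markers of these cells could be set beside the peaks.

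PRDM6 is a member of the PR domain family of zinc finger proteins and is expressed in SMCs. Its relatives act mostly in the nucleus, where they bind DNA or join complexes that modify histones and change transcription. ChIP-seq fixes proteins to the DNA they touch and sequences the precipitated fragments, and a peak is a stretch where fragments pile up beyond background. AP-1 is a dimer of the Fos, Jun and ATF families that answers growth and stress signals, and TEAD factors bind DNA as partners of the Hippo pathway coactivators YAP and TAZ. The study names the motifs of both among those found at its peaks.

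Some strong peaks are printed below as examples, and the motifs are more frequent among them than among all members. Within 100 bp of the summit, 14.6% of all members held AP-1 and 19.8% held TEAD. In the sequences below, read on the plus strand of GRCm38 (the sequence of mm10) from 50 bp before to 50 bp after the summit, capitals mark an AP-1 motif (TGACTCA or its reverse complement TGAGTCA) or a TEAD core motif (GGAATG or its reverse complement CATTCC). The first 5 are summits of strong peaks with and without these letters, and the last pair lies at the promoters of neighbouring fibrillar collagen genes.
Prex2, chr1:10898924-10899024: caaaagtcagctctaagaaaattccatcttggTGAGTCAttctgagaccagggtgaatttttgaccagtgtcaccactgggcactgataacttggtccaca
Rhbdd1, chr1:82429178-82429278: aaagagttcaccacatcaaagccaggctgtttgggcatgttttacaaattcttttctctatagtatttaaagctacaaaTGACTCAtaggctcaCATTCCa
Tnfsf18, chr1:161621445-161621545: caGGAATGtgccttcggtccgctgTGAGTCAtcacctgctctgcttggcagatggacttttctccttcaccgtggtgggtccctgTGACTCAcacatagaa
Ppp1r12b, chr1:134818904-134819004: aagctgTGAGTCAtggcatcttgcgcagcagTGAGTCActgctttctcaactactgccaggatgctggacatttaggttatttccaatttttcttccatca
Astn1, chr1:158733303-158733403: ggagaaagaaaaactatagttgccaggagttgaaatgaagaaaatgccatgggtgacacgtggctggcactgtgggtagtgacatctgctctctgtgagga
Col3a1, chr1:45311381-45311481: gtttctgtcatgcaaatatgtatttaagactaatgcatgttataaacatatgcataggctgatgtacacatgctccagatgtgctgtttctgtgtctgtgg
Col5a2, chr1:45502787-45502887: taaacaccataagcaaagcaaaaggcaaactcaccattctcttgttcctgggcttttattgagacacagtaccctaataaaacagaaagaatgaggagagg

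Peak strength was read as the −log10 p-value of MACS2, for which the authors' matched value is the smaller of the 2 replicates. Among the strongest was a distal peak at -93904 bp from the start of Prex2, which encodes an activator of the small GTPase Rac, with values of 21.0 in the first-listed and 26.6 in the second-listed replicate. A peak over the start of Pex19, a factor for building peroxisomes, had 19.9 and 22.1. The peak assigned to Astn1, a membrane protein of neurons, had 23.9 and 19.9. It lies beyond that gene, 53689 bp from the nearest start, in an intron of the neighbouring gene Pappa2, which encodes a protease of IGF-binding proteins. A distal peak assigned to Nr5a2, a nuclear receptor, lay at -118550 bp from its start and had 18.9 and 19.9. Ranking by the smaller value fixed that both replicates were high in the 13 strongest peaks, where both were above 16. The medians over the chromosome were 6.92 and 6.61.

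Others of the strongest were assigned to Rhbdd1, a membrane protease (18.4 and 19.6), Erbb4, the neuregulin receptor (16.9 and 18.8), Phlpp1, a phosphatase of Akt (16.8 and 25.5), Tnfsf18, a ligand of the tumour necrosis factor family (16.8 and 28.8), and a tie at a matched value of 16.7. The tie was shared by Il1r1, the interleukin 1 receptor, En1, a homeobox factor, Ppp1r12b, a myosin phosphatase subunit, and Dusp10, a phosphatase of stress kinases. Of the 13 strongest peaks, the whole tie included, 3 were exonic, 3 intronic, 2 at promoters, 4 distal and 1 just downstream of a gene. The exonic peaks assigned to Phlpp1 and En1 lay beyond those genes, in exons of other transcripts, 83557 and 154299 bp from the nearest start. The peaks of Erbb4 and Tnfsf18 were distal, at -266739 and 126475 bp from the start. Of these 13, only the promoter peak of Pex19 reached a transcript start.

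Over all 1412 members the median −log10 p-value was 5.63, with quartiles of 4.39 and 7.32 and a range of 3.03 to 24.3. The median over the other autosomes was 5.53. The median width of the members was 654.5 bp (quartiles 397 and 1027 bp), and they covered 1.10 Mb together. On the other autosomes the median width was 597 bp. The widest member was 5966 bp and lay over the start of Col3a1 (chr1:45308962-45314927), and the widest peak of the other autosomes was 5788 bp. Widths and strengths are measures the peak caller itself used.

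Agreement between the replicates was graded by the irreproducible discovery rate (IDR), which the authors computed. The global IDR used here is the estimated rate of irreproducible peaks among all matched peaks at least as strong. A global IDR of at most 0.05 was reached by 61 of the 1412 members (4.32%, with a 95% Wilson interval from 3.38 to 5.51), against 3.33% over the whole list. The mean over the other 18 autosomes was 3.21% ± 0.542 (SD, n = 18), and chromosome 1 ranked 2 of 19. An exact two-sided permutation test over the 19 autosomes gave p = 0.105, and 0.434 after adjustment over 11 measures. This test cannot go below 0.0526, so no measure of a single chromosome could pass 0.05. At an IDR of at most 0.01 there were 21 members (1.49%), against 118 peaks (0.946%) on the other autosomes.

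The lowest score the list gives, 48, was held by 565 members (40.0%, against 41.5% on the other autosomes), and 797 (56.4%, against 57.2%) had an IDR above 0.5. The rank correlation of the replicates' −log10 p-values was 0.289 over the 1412 members and 0.259 over the peaks of the other autosomes, as a description, since the peaks share both libraries. Between replicates, summits were 135 bp apart in the median member. The 61 members at an IDR of at most 0.05 had a median width of 1246 bp, against 627 bp for the other 1351.

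Chromosome 1 was among the autosomes with more peaks per Mb. It held 10.2% of the autosomal peaks on 8.01% of the known autosomal bases. Its density was 7.36 peaks per Mb, against a mean of 5.75 ± 1.24 (SD, n = 18) for the other autosomes, which ran from 3.88 on chromosome 4 to 8.57 on chromosome 15. Only chromosomes 15 and 10 were denser, with 8.57 and 7.52. The difference did not pass the exact permutation test over the 19 autosomes (p = 0.263, adjusted p = 0.579).

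**Figure D1:**
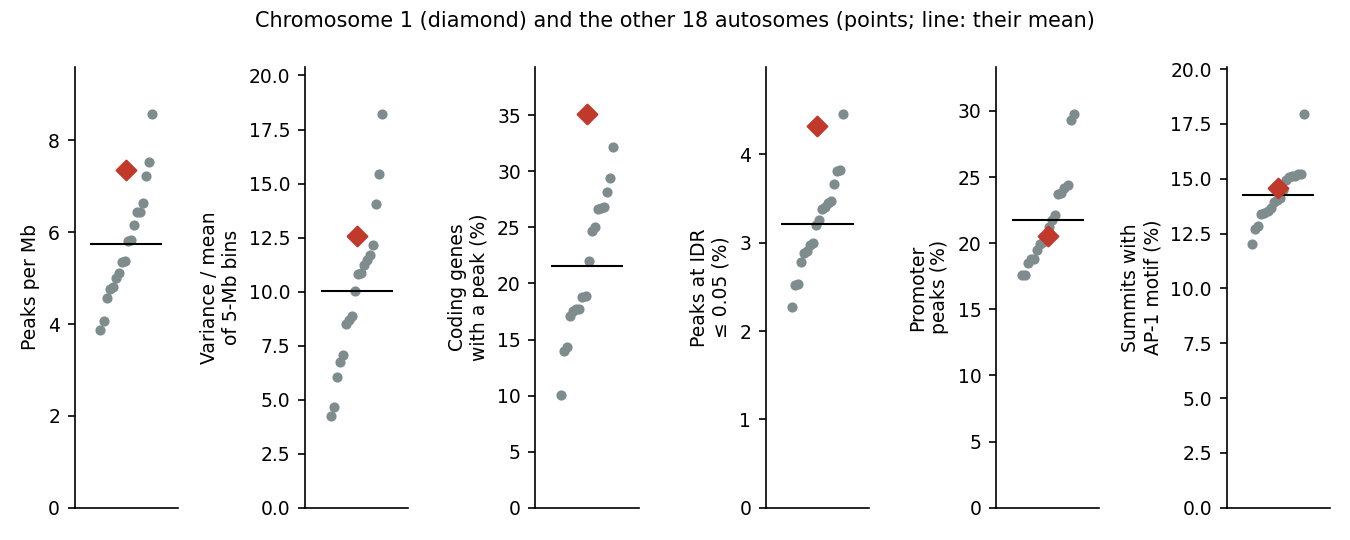
Each panel plots 1 measure of the peaks for chromosome 1 (red diamond) and the other 18 autosomes (grey points in ascending order, line at their mean), with units on the y axis and no meaning to horizontal position. Chromosome 1 lies above all others for the share of coding genes with a peak (35.1%) and near the mean for the promoter share (20.5%) and the AP-1 share (14.6%).

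The p-values also show against which background each peak was tested. MACS2 takes a genome-wide background or a higher local one, and p-values that fall on the tails of a single Poisson mean rest on the genome-wide one. That mean was 2.61 fragments in the first-listed and 2.39 fragments in the second-listed replicate. In the first-listed replicate 639 members (45.3%) rested on it, against 60.1% ± 11.6 (SD, n = 18) on the other autosomes. In the second-listed replicate it was 677 members (47.9%), against 65.7% ± 11.3 (SD, n = 18).

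Chromosome 1 ranked 18 of 19 in both replicates. Only chromosome 15, with 21.6% and 26.7%, had a lower share, and chromosome 4 had the highest with 74.7% and 82.0%. The exact permutation test gave p = 0.158 and an adjusted p of 0.434 for each replicate. For 418 members (29.6%) neither replicate rested on the genome-wide background, against 15.9% of the peaks on the other autosomes. The members on that background had a median height of 15 and 14 fragments, which is 5.74 and 5.86 times the background.

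Density tended to be higher on autosomes where a smaller share of peaks rested on the genome-wide background. Spearman's rho between peaks per Mb and the share on the genome-wide background was -0.604 in the first-listed and -0.693 in the second-listed replicate (n = 19 autosomes), and -0.463 and -0.581 without chromosomes 1 and 15. These are descriptions over chromosomes that share libraries and depth. The part of the local background in the density was not tested, nor was the copy number of chromosomes in these cultured cells.

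**Figure D2:**
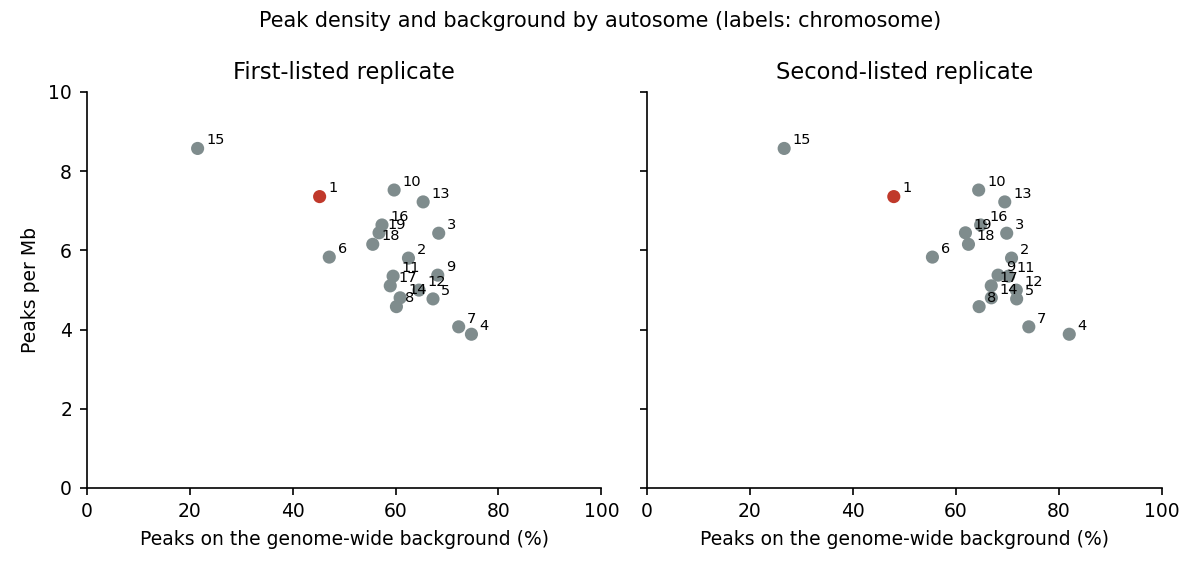
The y axis gives peaks per Mb and the x axis the share of peaks (%) whose p-value rests on the genome-wide background, with 1 point per autosome, labelled by number, and 1 panel per replicate. Chromosome 1 (red) and chromosome 15 lie at the upper left in both panels, and chromosome 4 at the lower right.

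The members were spread unevenly along the chromosome. Over the 38 bins of 5 Mb that had known sequence for most of their length, from 5 Mb on, the mean was 37.2 peaks, the median 33 and the SD 21.6. The variance was 12.6 times the mean, against 10.0 ± 3.65 (SD, n = 18) on the other autosomes (rank 4 of 19, exact permutation p = 0.474, adjusted p = 0.842). With bins of 1 Mb the value was 6.12 against 6.09 (rank 11), and for members at an IDR of at most 0.05 it was 1.37 against 1.37, with chromosome 1 slightly lower (rank 7). The 3 densest bins held 17.5% of the members and the 10 densest 44.9%. As a description, Spearman's rho between the count in a bin and its number of coding transcription start sites (TSSs) was 0.586, and with its GC content 0.323 (n = 38 bins of the same libraries).

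**Figure D3:**
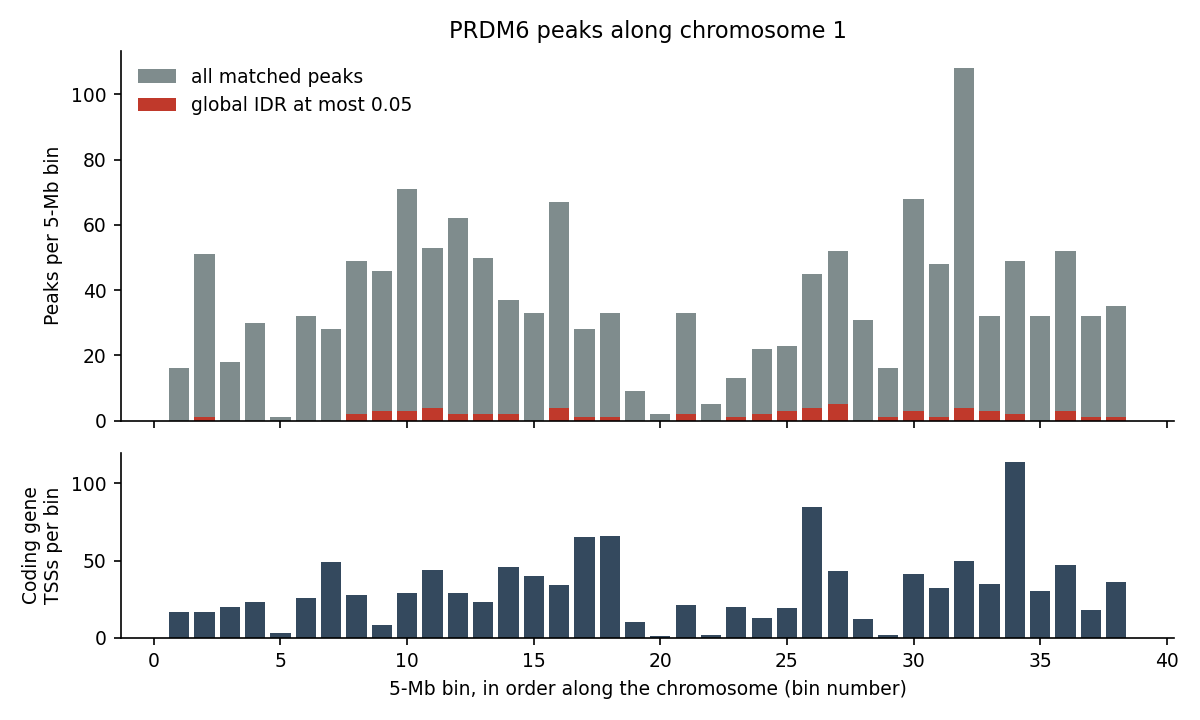
The upper panel gives the number of peaks in each 5-Mb bin of chromosome 1, in order (grey, all members; red, those at a global IDR of at most 0.05), and the lower panel the number of coding TSSs. Bin 32, from 160 to 165 Mb, holds 108 peaks, and 3 bins hold 5 or fewer.

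The densest bin ran from 160 to 165 Mb and held 108 peaks, which ranked 1 of the 472 autosomal bins. Its 50 coding TSSs were fewer than the 114 of the bin from 170 to 175 Mb, which held 49 peaks. Rabgap1l, a regulator of Rab GTPases, took 12 of the 108 peaks, and Gorab, a Golgi protein, and Tnfsf18 took 10 each. In this bin 38.9% and 36.1% of the peaks rested on the genome-wide background in the 2 replicates, below the shares of the whole chromosome. Of its peaks, 4 had an IDR of at most 0.05 and 18 held an AP-1 motif at the summit.

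Several genes of mesenchymal development lie in that bin. Around Dnm3, which encodes a dynamin, its antisense transcript Dnm3os and the microRNAs Mir199a-2 and Mir214 that Dnm3os carries, 20 peaks were assigned over 386.0 kb. The strongest of them, assigned to Dnm3os, had values of 19.9 and 11.8 in the replicates. Gorab and Prrx1, a homeobox factor of limb and craniofacial mesenchyme, took 16 peaks over 354.1 kb. The strongest of Prrx1 had 10.9 and 19.9. None of these 16 reached an IDR of 0.05, and 1 of the 20 did, against 4.32% of all members. Tnfsf18, Tnfsf4 and Fasl, neighbouring ligands of the tumour necrosis factor family, took another 16.

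The bin from 50 to 55 Mb held 71 peaks, 10 each at Ankrd44, Cavin2 and Hecw2. Cavin2 encodes a coat protein of caveolae, the membrane pits that SMCs are rich in, and Hecw2 a ubiquitin ligase. All 10 peaks of Hecw2 lay inside the gene and were annotated as intronic. Only 1 of the 10 peaks of Cavin2 overlapped the gene, and the 9 annotated as intronic lay upstream, in introns of other transcripts. The bin from 150 to 155 Mb held 68, with 7 each at Hmcn1 and Lamc1, both encoding extracellular matrix proteins. At a finer scale the densest bin of 1 Mb ran from 45 to 46 Mb, with 34 peaks (rank 5 of 2403 autosomal bins of 1 Mb), and held the collagen genes Col3a1 and Col5a2. Of the 192 bins of 1 Mb, 34 held no peak.

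Long stretches held no member. The longest ran for 5.29 Mb (chr1:113163596-118453422) over 11 coding TSSs, among them Cntnap5a, a neuronal adhesion protein, and Clasp1, a microtubule-binding protein. The next ran for 5.09 Mb (chr1:100220899-105309745) and held the TSS of 1 coding gene, the cadherin Cdh20. A stretch of 3.30 Mb (chr1:47490889-50792912) held none. The bins with the fewest peaks were those from 25 to 30 Mb with 1 and from 100 to 105 Mb with 2. Neighbouring members lay a median of 37407 bp apart, against 41452.5 bp on the other autosomes, and 29.6% of neighbours were under 10 kb apart.

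Most members lay away from promoters. The annotation placed 290 members (20.5%) at promoters, within 3 kb of a start, 479 (33.9%) in introns, 539 (38.2%) in distal intergenic DNA and 76 (5.38%) in other exons. A further 20 fell in a 3′ untranslated region, 4 in a 5′ one and 4 just downstream of a gene. The promoter share averaged 21.8% ± 3.58 (SD, n = 18) on the other autosomes (exact permutation p = 0.842) and the distal share 36.6% ± 4.69 (p = 0.789), with an adjusted p of 0.842 for both. Among members at an IDR of at most 0.05 both differences turned, with a promoter share of 21.3% against 14.2% and a distal share of 36.1% against 44.6%. Of the members, 112 (7.93%) reached over a TSS and 249 (17.6%) lay more than 100 kb from one. Of the intronic members, 159 of 479 were in the first intron of the transcript.

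A larger share of coding genes had an assigned peak than on any other autosome. Of 1208 coding genes on chromosome 1, 424 (35.1%, interval 32.5 to 37.8) had an assigned peak. On the other 18 autosomes 3897 of 19599 genes (19.9%) did, and the mean of their shares was 21.5% ± 6.15 (SD, n = 18), from 10.0% on chromosome 7 to 32.2% on chromosome 18. Chromosome 1 ranked 1 of 19, which gave the smallest p the exact permutation test allows (0.0526), and an adjusted p of 0.434. It ranked 1 also for peaks within 100 kb of the TSS (33.7%), within 10 kb (22.6%) and for peaks with an IDR of at most 0.05 (3.64%).

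Chromosome 1 had 6.29 coding genes per Mb, the third lowest of the autosomes, against a mean of 8.92 ± 2.60 (SD, n = 18). It held 1.17 peaks per coding gene, the highest value, against 0.703 ± 0.261 (SD, n = 18) and 1.10 on chromosome 15. As a description, the rank correlation between coding genes per Mb and the share of genes with a peak was -0.863 over the 19 autosomes, where both measures contain the gene count. The share of genes with an assigned peak at matched peaks per gene was not tested.

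Including noncoding genes, the members were assigned to 500 genes. Of these, 201 had 1 peak, 89 had 5 or more and 17 had 10 or more. The mean was 2.82 peaks per assigned gene, against 2.67 on the other autosomes. Mir6344, a microRNA gene, took the most, 17, all of them distal. Erbb4 took 14, Col5a2, Mir181a-1 and Prex2 took 13 each, Col3a1 and Rabgap1l 12 each, and Pla2g4a, the cytosolic phospholipase that releases arachidonic acid, took 11. A tie of 9 genes followed with 10 peaks each, among them Disp1, which releases hedgehog ligands, Dusp10 and Mir30a.

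MicroRNA genes took 98 of the members (6.94%), spread over 20 genes, against a mean of 2.56% on the other autosomes and 5.99% on chromosome 9, the next highest. This count was looked at after the values had been seen and is a description. A peak was assigned to the nearest start whatever its distance. Of the 17 peaks of Mir6344, 6 were within 100 kb of it, and of the 13 of Mir181a-1 also 6.

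Groups of chromosome 1 genes were listed by function, 142 genes in 7 lists, and 83 of them had a peak. The lists were not limited to genes with a role in SMCs or their development. The share over all 1208 coding genes was 35.1%, and 68 of these (5.63%) had at least 5 peaks, against 28 of the 142 (19.7%). The listed genes were picked as well-known ones with earlier results known and were not matched to the rest for gene length, so the counts describe the lists and were not tested.

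**Figure D4:**
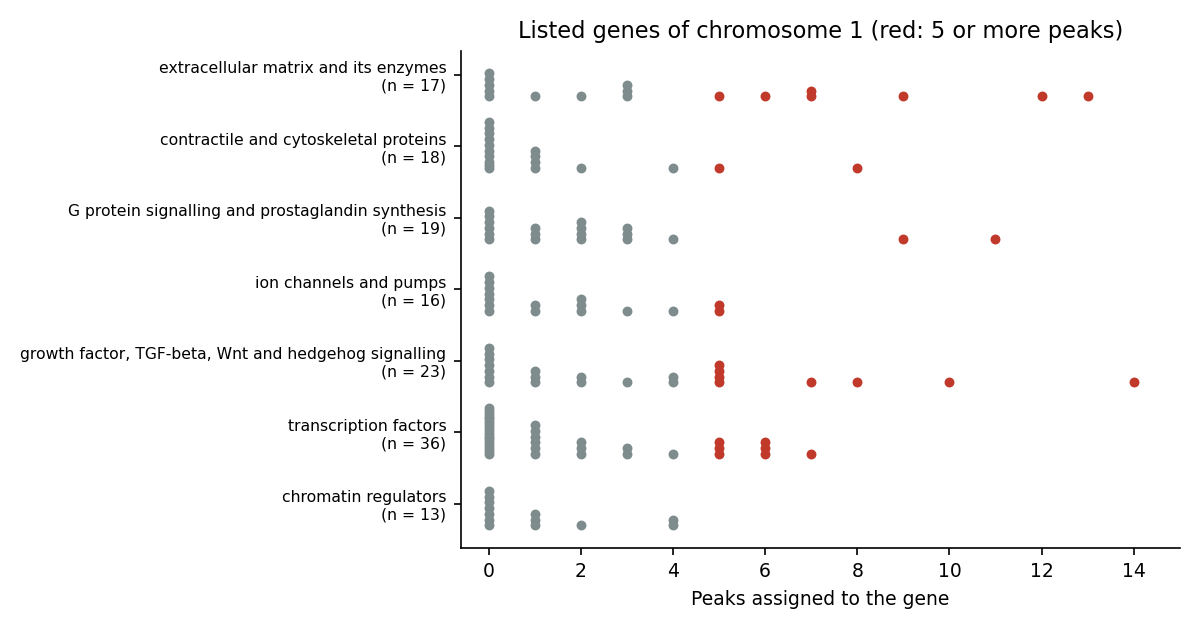
Each point is 1 listed gene, placed on the x axis by its number of assigned peaks and on the y axis by its functional list, with n genes per list (red, 5 or more peaks; vertical stacking separates points). Erbb4 (14), Col5a2 (13), Col3a1 (12) and Pla2g4a (11) lie farthest right, and every list has genes at 0.

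Of 17 genes listed under the extracellular matrix, 12 (70.6%) had a peak, and 3 had one at an IDR of at most 0.05. The 17 and the 12 include Dst, which encodes a cytoskeletal linker rather than a matrix protein. Col3a1 (chr1:45311538-45349706, plus strand) and Col5a2 (chr1:45374321-45503282, minus strand) encode fibrillar collagens of the vessel wall and are neighbours. They took 25 peaks over 585.7 kb, 16 of them distal and 4 at promoters. The peak over the start of Col3a1 had values of 21.0 and 11.8 in the replicates, and the one over the start of Col5a2 (chr1:45501651-45504057) had 13.9 and 14.7. Both had an IDR of at most 0.05. Of the 25 peaks, 11 and 12 rested on the genome-wide background in the 2 replicates.

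Dst, a cytoskeletal linker, had 9 peaks with a strongest value of 9.54, Lamc1 and Hmcn1 had 7 each, Prelp, a leucine-rich proteoglycan, had 6, and Tnr, a tenascin, had 5. The 7 peaks of Lamc1 were weak, with a strongest value of 4.91. Fn1, the fibronectin gene, had no peak, nor had Col4a4, Col9a1, Fmod and Tnn.

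Of 18 listed genes of contractile and cytoskeletal proteins, 8 (44.4%) had a peak, and 1 had one at an IDR of at most 0.05. The myosin phosphatase subunit Ppp1r12b was not on this list. It had 8 peaks, up to 16.7, and 2 of them had an IDR of at most 0.05. Among the listed genes, Fhl2, a LIM domain partner of several transcription factors, had the most, 8, with a strongest value of 12.6. Cdc42bpa, a kinase that acts on myosin phosphatase, had 5. Genes with no peak included Des, the intermediate filament desmin, Lmod1, the leiomodin of smooth muscle, Tns1, Csrp1 and the troponins Tnnt2 and Tnni1.

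Of 19 genes of G protein signalling and prostaglandin synthesis, 13 (68.4%) had a peak. Pla2g4a and Ptgs2, the inducible cyclooxygenase, act in sequence to make prostaglandins, which keep the ductus arteriosus open before birth. They are neighbours and, with the opposite-strand transcripts of Ptgs2, took 21 peaks over 1224.6 kb, 11 of them assigned to Pla2g4a. Of these 11, 6 overlapped the gene and 10 lay within 100 kb of an annotated start. The strongest, inside Pla2g4a in intron 12 of 17 and 38758 bp from the nearest annotated transcript start, had values of 15.8 and 11.4 and an IDR of at most 0.05. Ptgs2 had 4 peaks, 1 of them over its start, and the strongest of them was 8.72.

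The Rgs genes encode proteins that shut off G protein signals. The cluster of Rgs1, Rgs2, Rgs13, Rgs18 and Rgs21 took 22 peaks, 21 of them distal. None of them had an IDR of at most 0.05, which 4.32% of all members reached. Rgs1 took 9 with a strongest value of 11.1. Rgs5, a marker of pericytes and SMCs, had 3 with a strongest value of 5.84. Rgs16, the adenosine receptor Adora1 and the chemokine receptor Cxcr4 had none.

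Of 16 ion channels and pumps, 9 (56.3%) had a peak. The potassium channel genes Kcne4 and Kcnq5 had 5 each, with strongest values of 10.4 and 7.17. Atp2b4, a calcium pump of the plasma membrane, had 2, and 1 of them (11.4) had an IDR of at most 0.05. Kcnj9, Kcnj10, Kcnj13, Cacna1s, Kcnb2 and Trpa1 were among those with none.

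Of 23 genes of growth factor, TGF-beta, Wnt and hedgehog signalling, 16 (69.6%) had a peak. Erbb4 led with 14 peaks, 2 of them at an IDR of at most 0.05, and only 1 of the 14 lay within 100 kb of its start. Dusp10 had 10 and Il1r1 5, each with 1 such peak, and for Dusp10 the strongest had 22.1 and 16.7 in the replicates. Nrp2, a semaphorin and VEGF coreceptor, had 8 and Epha4 7. Irs1, Fzd7 and Plxna2 had 5 each. Tgfb2, a ligand needed for outflow tract development, had 2, up to 6.15, and Bmpr2 had 4, up to 6.61. Ihh, Wnt6, Igfbp5, Inha and Mstn had none.

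Of 36 transcription factors, 19 (52.8%) had a peak, 3 of them with an IDR of at most 0.05. These were Nr5a2, En1 and Atf3, a stress-induced member of the AP-1 superfamily, whose peak 1290 bp downstream of a start had values of 20.8 and 14.3. The peaks of Nr5a2 and En1 at this limit lay outside the genes, at -118550 and 154299 bp from the start. Ikzf2 had the most, 7, up to 11.5. Prrx1 and Atf6 had 6 each, and Pax3, Klf7 and Eya1 had 5 each. Tfap2b, a neural crest factor whose mutation is a known cause of patent ductus arteriosus, had none and lay in a stretch of 2.37 Mb with no peak. Prox1, Sox17 and Prdm14, another PR domain gene, also had none. Of 13 chromatin regulators, 6 (46.2%) had a peak and none had one at an IDR of at most 0.05. Over all coding genes of the chromosome these shares were 35.1% and 3.64%. Hdac4 and Smyd3 had the most, 4 each, up to 6.61 and 5.00.

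The letters of the AP-1 motif were more frequent around the summits than in the flanks. Within 100 bp of the summit 206 members (14.6%, interval 12.8 to 16.5) held TGACTCA on either strand, against 42 (2.97%) in windows with as many positions 1000 bp away. An exact two-sided McNemar test over the members gave p = 6.09e-30, and 1.22e-29 adjusted over 2 motifs. The summit share was 4.90 times the flank share, and 2.73 times with the summits of the second-listed replicate alone. Of all windows of this length tiled along the chromosome, 3.10% held the motif. On the other autosomes 14.3% of summits and 4.04% of flanks held it. Chromosome 1 ranked 8 of 19 for the summit share, against a mean of 14.3% ± 1.33 (SD, n = 18; exact permutation p = 0.842).

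The TEAD core GGAATG, on either strand, stood within 100 bp of the summit in 280 members (19.8%) and in the flanks of 187 (13.2%). The exact McNemar test gave p = 3.53e-06, the same after adjustment. In tiled windows the share was 10.9%, and on the other autosomes it was 18.9% of summits and 11.1% of flanks. Chromosome 1 ranked 5 of 19 for the summit share (exact permutation p = 0.579, adjusted p = 0.842). Both motifs stood together at 47 summits. The motifs can share 2 bases where they abut, and a match shows the letters and not a bound factor. Since the same motifs were known from the whole list, these tests are no independent support.

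Summits with the motifs were more frequent among strong members. In 4 groups of 353 members, from the weakest to the strongest, the AP-1 share was 12.2%, 12.2%, 15.9% and 18.1%. The flanks of the same groups held it in 2.27% to 4.25%. The TEAD share was 15.6%, 17.0%, 21.2% and 25.5%, and the flanks of these groups held it in 12.5%, 10.8%, 14.2% and 15.6%, highest in the strongest group as well. The intervals of the weakest and strongest group overlapped for AP-1 (9.17 to 16.0 and 14.5 to 22.5) and did not for TEAD (12.2 to 19.7 and 21.2 to 30.3), and the median width was 504 bp in the weakest and 909 bp in the strongest group. Of the 61 members at an IDR of at most 0.05, 14 (23.0%) held AP-1 and 19 (31.1%) TEAD.

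**Figure D5:**
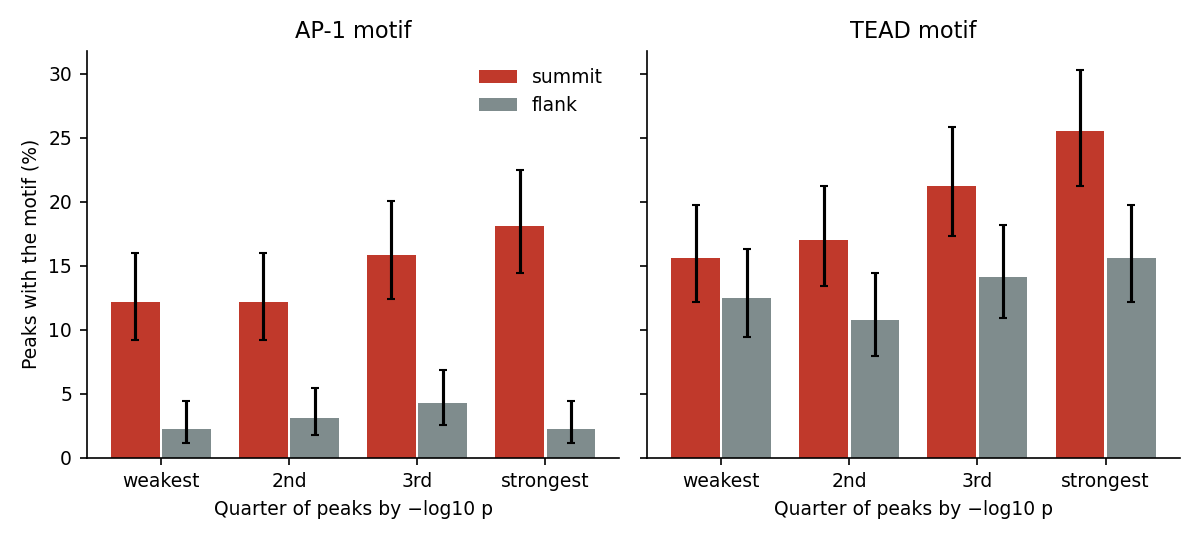
Bars give the share of members (%) with the AP-1 or TEAD motif within 100 bp of the summit (red) or in flanks 1000 bp away (grey), for 4 groups of 353 members ordered by −log10 p, with 95% Wilson intervals. From the weakest to the strongest group the red bars go from 12.2% to 18.1% for AP-1 and from 15.6% to 25.5% for TEAD.

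By class, AP-1 stood at 11.7% of promoter, 15.9% of intronic and 14.8% of distal members. TEAD stood at 15.5%, 21.3% and 21.9%. The peak of Tnfsf18 printed above held 2 AP-1 motifs 61 bp apart, and that of Ppp1r12b 2 within 25 bp. The printed window at Astn1 held neither motif, and those of Col3a1 and Col5a2 held none in the printed bases, while a TEAD core stood farther out within 100 bp of both summits.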

How the data were processed

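The series held 2 PRDM6 ChIP and 2 Input libraries. The authors trimmed paired reads, aligned them to mm10 with BWA, called peaks in each ChIP library against its own input with MACS2 at a p-value limit of 0.001, and matched both sets by IDR (BWA, MACS2 and mm10 are also in the submitters' processing notes, versions not given in the sources used here). The deposited score is a scaled IDR, where 540 stands for 0.05 and 830 for 0.01, with −log10 IDR beside it. The deposited −log10 p-values are those of MACS2 for each replicate and, for the match, the smaller one. Which library was listed first is not known. The deposited distance to the TSS, gene and region class came from the authors' annotation. Signal and q-value columns held a placeholder, so strength was the −log10 p-value.

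Sequence was that of GRCm38 and gene models were the GENCODE basic set for the same build. Density used bases other than N. Depth was not given as read totals: the Poisson mean with the most p-values on its tails (within 0.0002) gave the background and the heights in fragments. Chromosome 1 was compared with the other 18 autosomes by an exact two-sided permutation test over 19 autosomes, with Benjamini-Hochberg adjustment over 11 measures. Motifs were compared between summit and flanks by an exact McNemar test. Wilson intervals (95%) account for the counting of peaks or genes alone. The scripts were tested on simulated data. Named are the genes of the 10 strongest peaks, those with most peaks, those leading the densest bins, those in the longest stretches without a peak, and listed genes with an IDR of at most 0.05 or at least 5 peaks, with the leading member and defining members without a peak of each list. The gene Cdh20, the microRNA count, the members of gene clusters and further listed genes with few peaks were picked after their values were seen. The members and lists were chosen with earlier results of these data known. Alternatives were stricter IDR limits, other bins, lengths, merged peaks, motif windows, gene distances, a wider tolerance and each replicate alone. Tests ran in SciPy 1.17.1 with NumPy 2.4.6, tables in pandas 2.3.3 and plots in matplotlib 3.10.9, under Python 3.11.15. Results of some genes that these rules would name are not reported here.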

Additional observations from a re-analysis of the deposited data

How the results depend on the processing

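All 12 alternatives of the motif tests kept their direction and passed the threshold, with unadjusted exact McNemar p-values up to 0.0414. The 20 alternatives compared over autosomes could not pass 0.05 by design, so only their direction is informative, and 16 kept it. The 7 counts of listed genes with a peak were within 1.5 times of those reported when limited to 100 kb. With the 61 members at an IDR of at most 0.05, 3 measures changed sides of the mean of the other autosomes: the variance over mean was 1.37 against 1.37 (slightly lower on chromosome 1), the promoter share 21.3% against 14.2%, and the distal share 36.1% against 44.6%. The cause was not tested. Median strength taken from 1 replicate alone ranged from 6.61, equal to the mean of the other autosomes, to 6.92. The density rank of chromosome 1 was 1 to 3 of 19 and the rank of its coding gene share 1 under every alternative run for them. The AP-1 ratio of summits to flanks ran from 2.73 with the summits of 1 replicate alone to 8.38 within 50 bp of the summit, and the TEAD ratio from 1.48 to 2.11. No paired analysis was possible because the Input group has no values in the list and the list names the ChIP replicates only by order. The depth, with backgrounds of 2.61 and 2.39 fragments and 61 reproducible members, limits what can be said of single peaks.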
